A study of Mus musculus with 28 samples.

Results

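H19, Igf2, Igf2r, Cdkn1c, Phlda2, Peg3, Mest, Grb10, Plagl1 and Snrpn are 10 mouse genes subject to genomic imprinting. They were chosen by name from a table of 37620 genes, with earlier results of these data known. Counts of these genes called therefore do not stand for imprinted genes in general. All 10 were found and tested. They were read in 28 poly(A) RNA-seq libraries of cells on the way from mouse embryonic fibroblasts (MEFs) to induced pluripotent stem cells (iPSCs). The 14 groups held 2 libraries each. K36M and WT cells were each taken as starting MEFs (d0), on reprogramming days 2, 4, 6 and 8 (d2 to d8), as iPSCs after passaging, and as MEFs that had no OKSM factors (noOKSM). K36M is a lysine-to-methionine change in the tail of histone H3, the library names give H3_3 (H3.3) for WT, and OKSM stands for Oct4, Klf4, Sox2 and Myc. MEFs grew in serum-containing DMEM, reprogramming took place in a medium called AGi and iPSCs were kept in one called S/L, so the medium changes with the stage. The names of the noOKSM libraries carry another prefix than those of all other libraries, and the labels name no batch. A difference between noOKSM MEFs and d0 cannot be told apart from a difference between these sets of libraries. No label gives the mouse strain, the age of the embryos, how K36M was introduced or whether the 2 libraries of a group are separate cultures. The p-values therefore measure spread between libraries that may be technical replicates.

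Imprinted genes are transcribed mainly or wholly from 1 parental copy, because DNA methylation laid down in the egg or the sperm marks a control region near them and is kept through cell division. H19, Igf2r, Cdkn1c, Phlda2 and, in most tissues, Grb10 are read from the maternal copy, while Igf2, Peg3, Mest, Plagl1 and Snrpn are read from the paternal copy. H19 and Igf2 are neighbours that share 1 imprinting control region and 1 set of enhancers, and many imprinted genes act on fetal growth. The read counts are not split by allele, so they give the summed output of both copies.

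H19 lies on chromosome 7 from 149761434 to 149764048 and Igf2 on the same chromosome from 149836673 to 149852721, both on the minus strand of mm9 in GENCODE vM1. Cdkn1c (7:150644255-150646955) and Phlda2 (7:150687450-150688446) sit further along that chromosome in another imprinted cluster. Peg3 (7:6656603-6683132) and Snrpn (7:67127388-67285105) are elsewhere on it. Igf2r is on chromosome 17 from 12875272 to 12962530, Grb10 on chromosome 11 from 11830511 to 11938686, Mest on chromosome 6 from 30673547 to 30698457, and Plagl1 on chromosome 10 from 12810497 to 12851500. Only Mest and Plagl1 are on the plus strand.

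Zfp57 is a zinc finger protein that keeps methylation at imprinted control regions and binds the hexamer TGCCGC when it is methylated. The RefSeq table of start sites (GRCm38.p6, 250 bases before to 50 after the start) held 17 promoters for 8 of the 10 genes, and no entry for H19 or Cdkn1c. TGCCGC or its reverse complement GCGGCA stood in 6 of these 17 windows, against 11.61% of all 32851 windows of that length. The 2 Mest windows with a match overlap almost fully. The hexamer holds a CG pair. The 17 windows held 2 to 45 CG pairs, and those with a match 7 (Snrpn) to 45 (Grb10), against a median of 7 over all windows. The shares do not allow for this or for several windows of 1 gene. The hexamer is shown in capitals in 1 window each of Mest (chr6:30737800-30738099, plus strand), Plagl1 (chr10:13090582-13090881, plus strand) and Snrpn (chr7:60005150-60005449, minus strand), which are paternally expressed genes with a match. Of the remaining windows with a match, 1 each belongs to Mest, Igf2 and Grb10. A match describes these letters only, and a window without one says nothing of the factor.
Mest promoter: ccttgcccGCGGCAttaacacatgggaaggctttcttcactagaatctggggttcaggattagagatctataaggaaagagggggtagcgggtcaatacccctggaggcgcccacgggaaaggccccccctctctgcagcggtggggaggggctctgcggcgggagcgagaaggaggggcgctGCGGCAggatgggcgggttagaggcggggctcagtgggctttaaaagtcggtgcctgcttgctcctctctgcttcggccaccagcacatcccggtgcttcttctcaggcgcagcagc
Plagl1 promoter: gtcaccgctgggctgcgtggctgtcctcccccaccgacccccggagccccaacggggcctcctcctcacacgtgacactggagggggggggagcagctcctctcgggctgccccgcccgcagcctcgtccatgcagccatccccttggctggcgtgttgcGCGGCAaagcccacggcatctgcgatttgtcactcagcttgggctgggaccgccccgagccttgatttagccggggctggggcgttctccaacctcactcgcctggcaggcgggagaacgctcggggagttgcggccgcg
Snrpn promoter: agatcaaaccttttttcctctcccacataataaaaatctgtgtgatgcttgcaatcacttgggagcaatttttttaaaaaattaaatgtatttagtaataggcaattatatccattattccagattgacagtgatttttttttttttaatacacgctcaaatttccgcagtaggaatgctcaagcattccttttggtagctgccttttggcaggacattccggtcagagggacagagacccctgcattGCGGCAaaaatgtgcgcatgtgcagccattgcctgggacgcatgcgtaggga

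H19, Igf2 and Mest also hold microRNAs. Those of H19 are printed because H19 had the highest level per length of the 10 genes at d0 (1070 RPKM, or CPM per kilobase of exon, in K36M and 295 RPKM in WT), with the seed (bases 2 to 8) in capitals, from the same RefSeq build. The gene counts do not measure the mature microRNAs.
mmu-miR-675-5p: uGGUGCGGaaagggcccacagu
mmu-miR-675-3p: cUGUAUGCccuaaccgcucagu

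Total gene counts ran from 17507521 to 35622279 per library, and 25652 genes had a count. H3f3a, a gene of histone H3.3, averaged 47.1 CPM (counts scaled to the library's TMM-adjusted total) in K36M d0 and 46.2 CPM in WT d0, which does not check the K36M label because no source says which gene carries the change. The K36M d6 libraries differed most from each other, with a median absolute log2 difference of 0.333 over 10961 genes, against at most 0.167 in the other groups. The summed CPM of 8 fibroblast markers, all detected in every group, was 26900 to 27100 in K36M d0 and 19500 to 24100 in WT d0. At d2 it was 1560 to 1600 in K36M and 2870 to 2900 in WT, and at d8 105 to 123 in K36M and 1960 to 2070 in WT. The sum of 8 skeletal muscle markers was 284 to 297 CPM in K36M d0 and 446 to 496 CPM in WT d0. At d2 the muscle sum was 24 to 25.9 in K36M and 11.4 to 13.5 in WT. The sum of 8 pluripotency markers was 2.9 to 3.17 CPM in K36M d0 and 2.36 to 2.91 CPM in WT d0, with Zfp42 at 0 in both. It was 698 to 721 in K36M d4 and 136 to 199 in WT d4, 1960 to 1990 in K36M d8 and 473 to 508 in WT d8, and 5440 to 5820 in K36M iPSC and 5530 to 5590 in WT iPSC. The sum of 6 epithelial markers was 1940 to 1960 CPM in K36M d4 and 61.8 to 67.9 CPM in WT d4. The epithelial sum was 84.7 to 89 in K36M d2 and 6.54 to 6.56 in WT d2. In MEFs it was 29.5 to 29.8 in K36M d0 and 14.3 to 17.4 in WT d0, and 188 to 210 in K36M noOKSM and 14.7 to 17.5 in WT noOKSM. The sum of 5 detected macrophage markers was 11.5 in both K36M d0 libraries and 39 to 42.8 in WT d0. At d8 the macrophage sum was higher in K36M, with 14.8 to 18.7 CPM against 8.5 to 9 CPM in WT. The pluripotency sum overlapped at d2, with 260 to 295 CPM in K36M and 266 to 288 CPM in WT. The fibroblast sum overlapped in noOKSM MEFs, with 17300 to 22700 CPM in K36M and 16700 to 18300 CPM in WT. K36M and WT libraries thus differed in some of these marker sums among the MEFs and from d2 to d8. The part of the markers in the results below was not tested. Fewer cells of a type and less RNA per cell cannot be told apart in bulk RNA.

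In MEFs at d0, 6 of the 10 imprinted genes were higher in K36M (H19, Igf2, Igf2r, Peg3, Mest and Plagl1) and 1 was lower (Snrpn), at an adjusted p below 0.05 in edgeR's quasi-likelihood test, where 15.9% of all 16932 tested genes passed. Of these 7 calls, 4 were left without K36M d0 replicate 1, 3 without WT d0 replicate 1 and 5 without either other library. At d2, 3 were higher and 1 lower, against 20.1% of all genes. The d2 calls were 2 without K36M d2 replicate 1 or either WT library and 3 without K36M d2 replicate 2, and 9 members were called in a fit of these 4 libraries alone, all but Cdkn1c. At d4, 6 were higher and 1 lower (52.9% of all genes), at d6 5 were higher and 3 lower (70.9%), and at d8 8 were higher and 1 lower (60.6%). In noOKSM MEFs 6 were higher and 1 lower (35% of all genes), with 4 called without K36M noOKSM replicate 1 or WT noOKSM replicate 2 and 5 without either other library. In iPSCs none of the 10 passed in edgeR, where 1.25% of all genes did, 1 of them had an unadjusted p below 0.05 (Snrpn), DESeq2 called 1 (Snrpn), a fit of these 4 libraries alone called 1 (Snrpn), and edgeR without the filter on low counts called 1 (H19). At d6, where most genes passed, the members' share is near that of all genes. The median log2 fold change of the 10, K36M over WT, was 0.44 (d0), 0.21 (d2), 0.98 (d4), 0.50 (d6) and 1.02 (d8), with 0.01 for iPSCs and 0.43 for noOKSM MEFs, against 0 to 0.08 for all genes.

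**Figure D1:**
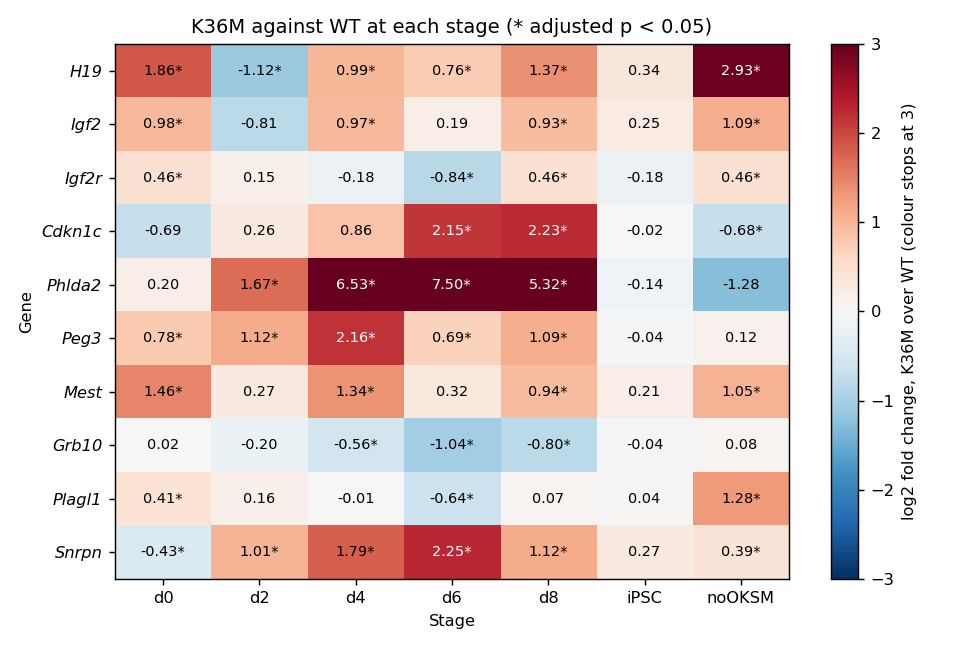
Log2 fold change of K36M over WT for each of the 10 genes (rows) at each stage (columns), from 1 edgeR fit to 28 libraries; red is higher in K36M, blue is lower, the colour stops at 3 and an asterisk marks an adjusted p below 0.05. Phlda2 lies beyond the colour range at d4, d6 and d8, H19 was at 2.93 in noOKSM MEFs and at -1.12 at d2, and no asterisk stands in the iPSC column.

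H19 is a long non-coding RNA that is abundant in the embryo and restrains growth in mice. It was higher in K36M than in WT MEFs, reached its lowest level at d2 in both genotypes, and was lower in K36M at that stage. At d0 the K36M libraries had 2560 and 2520 CPM of H19, against 679 and 722 CPM in the WT libraries. The groups lie far apart, with a log2 fold change of 1.86 ± 0.304 (SE, n = 2 each, 3.63-fold, adjusted p = 0.000278 in edgeR's quasi-likelihood test), and the value was 1.82 to 1.90 without any 1 of the 4 libraries. In noOKSM MEFs H19 had 888 and 758 CPM in K36M and 116 and 99.7 CPM in WT (2.93 ± 0.318, 7.63-fold, adjusted p = 7.49e-07 in edgeR). This is the largest K36M difference of H19 among the 7 stages, and it was 2.81 to 3.04 without any 1 of the 4 libraries. Its excess over the d0 difference was not called (1.07 ± 0.419, adjusted p = 0.0697, edgeR interaction contrast).

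At d2 the H19 libraries had 10.2 and 9.17 CPM in K36M and 20.4 and 21.6 CPM in WT, the 4 lowest values of the 28 libraries. The difference was -1.12 ± 0.35 (adjusted p = 0.0293 in edgeR). It lost its call without any 1 of the 4 libraries, with log2 values from -1.20 to -1.05 and adjusted p from 0.0815 to 0.155. Against d0, H19 at d2 fell by 8.04 ± 0.412 on the log2 scale in K36M (262-fold lower, adjusted p = 2.99e-12) and by 5.06 ± 0.356 in WT (33.3-fold lower, adjusted p = 4.26e-10, both edgeR). The K36M difference at d2 minus that at d0 was -2.98 ± 0.461 (adjusted p = 0.000262, edgeR interaction contrast).

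From d4 on, H19 lay above its d2 level without overlap in both genotypes. At d4 it had 188 and 195 CPM in K36M and 99.9 and 93.1 CPM in WT (0.99 ± 0.302, adjusted p = 0.00969 in edgeR), and the call was lost without WT d4 replicate 1 (1.00, adjusted p = 0.0503) or WT d4 replicate 2 (0.94, adjusted p = 0.0703). The d6 libraries had 913 and 488 CPM in K36M and 415 and 413 CPM in WT (0.76 ± 0.296, adjusted p = 0.0293 in edgeR). The K36M d6 libraries are far apart: without K36M d6 replicate 1 the value was 0.24 (adjusted p = 0.557), without either WT library adjusted p was 0.0967 or 0.0988, and a fit of these 4 libraries alone gave 0.72 (adjusted p = 0.0886). At d8 it had 1930 and 1680 CPM in K36M and 409 and 988 CPM in WT (1.37 ± 0.299, adjusted p = 0.000647 in edgeR). Here the WT libraries are apart: the value was 0.86 (adjusted p = 0.00825) without WT d8 replicate 1 and 2.14 (adjusted p = 1.97e-06) without WT d8 replicate 2, and a fit of these 4 libraries alone did not call it (1.34, adjusted p = 0.182). In iPSCs H19 had 619 and 771 CPM in K36M and 436 and 660 CPM in WT, which overlap (0.34 ± 0.295, adjusted p = 0.759 in edgeR; 0.34 and 0.0456 without the filter on low counts).

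Ordered by mean, H19 ran from K36M d0 (2540 CPM) over K36M d8 (1800 CPM) and K36M noOKSM (823 CPM) to a middle set of WT d0, K36M d6, WT d8 and K36M iPSC (695 to 701 CPM), each overlapping the next. WT iPSC (548 CPM), WT d6 (414 CPM), K36M d4 (192 CPM), WT noOKSM (108 CPM), WT d4 (96.5 CPM), WT d2 (21 CPM) and K36M d2 (9.67 CPM) followed. Among these, K36M iPSC overlaps WT iPSC, and WT noOKSM overlaps WT d4.

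**Figure D2:**
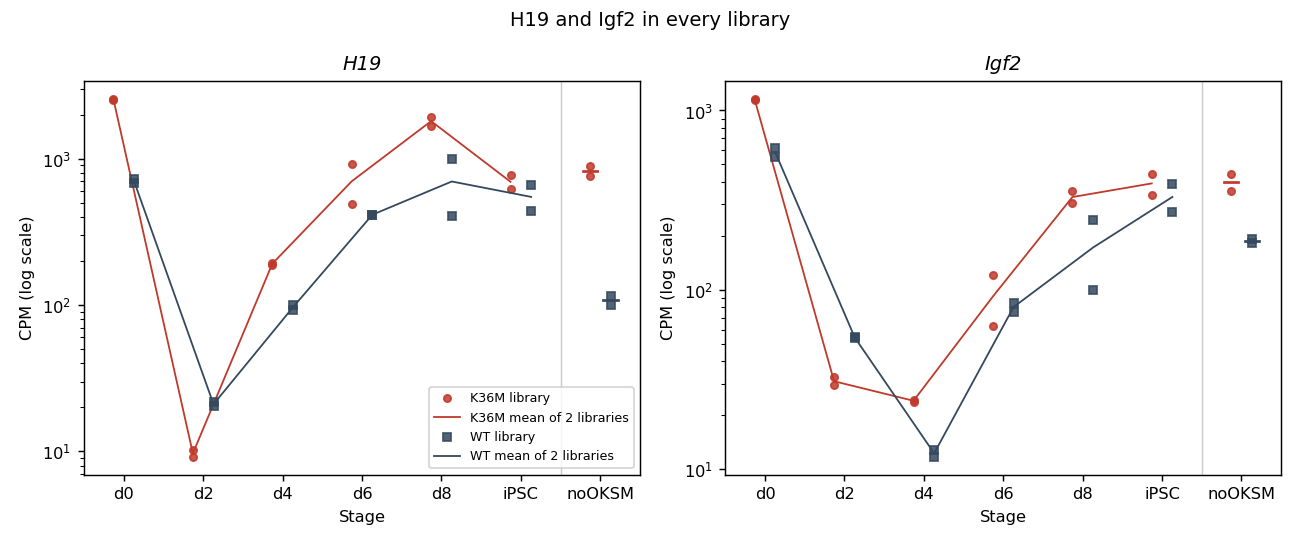
H19 (left) and Igf2 (right) in CPM on a log scale in every library, with K36M as red circles, WT as dark squares, lines through the means of 2 libraries from d0 to iPSC, and the noOKSM MEFs set apart at the right with a bar at their mean. H19 is lowest at d2 (9.67 CPM in K36M, 21 CPM in WT) and Igf2 at d4 (24 CPM in K36M, 12.3 CPM in WT).

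Igf2 codes for insulin-like growth factor 2, a growth factor of the embryo that signals through the type 1 receptor. It was about 2-fold higher in K36M MEFs, with calls that depend on single libraries, and fell in both genotypes to its lowest level at d4, later than H19. At d0 Igf2 had 1140 and 1160 CPM in K36M and 551 and 615 CPM in WT (0.98 ± 0.301, 1.97-fold, adjusted p = 0.0334 in edgeR). These groups do not overlap, but the call was lost without any 1 of the 4 libraries (0.90 to 1.06, adjusted p from 0.09 to 0.244). In noOKSM MEFs it had 440 and 356 CPM in K36M and 193 and 182 CPM in WT (1.09 ± 0.304, adjusted p = 0.00931 in edgeR), and adjusted p was 0.074 without K36M noOKSM replicate 1 and 0.0523 and 0.0663 without either WT library.

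At d2 Igf2 had 29.3 and 32.5 CPM in K36M and 53.7 and 54.7 CPM in WT (-0.81 ± 0.32, adjusted p = 0.0872 in edgeR), which do not overlap. It was called without the filter on low counts (-0.81, adjusted p = 1.32e-10) and in a fit of these 4 libraries alone (-0.79, adjusted p = 5.07e-13). At d4 it had 24.4 and 23.7 CPM in K36M and 12.8 and 11.7 CPM in WT (0.97 ± 0.345, adjusted p = 0.024 in edgeR), a call lost without any 1 of the 4 libraries (adjusted p from 0.0667 to 0.13). Against d0 the d4 level of Igf2 was 47.8-fold lower in K36M and 47.6-fold lower in WT (edgeR adjusted p = 1.2e-10 and 2.36e-10). At d6 Igf2 had 121 and 62.7 CPM in K36M and 84.9 and 75.4 CPM in WT, which overlap (0.19 ± 0.307, adjusted p = 0.589; -0.35 without K36M d6 replicate 1). At d8 it had 354 and 304 CPM in K36M and 100 and 244 CPM in WT (0.93 ± 0.303, adjusted p = 0.0128 in edgeR). Igf2 and H19 were low in the same WT d8 library: without WT d8 replicate 1 the Igf2 value was 0.43 (adjusted p = 0.178), without WT d8 replicate 2 it was 1.72 (adjusted p = 3.25e-05), without K36M d8 replicate 1 it was 0.82 (adjusted p = 0.0744), and a fit of these 4 libraries alone gave adjusted p = 0.311. In iPSCs Igf2 had 339 and 445 CPM in K36M and 270 and 389 CPM in WT (0.25 ± 0.30, adjusted p = 0.848 in edgeR), which overlap. Igf2 shares 98 exon bases with the antisense gene Igf2as, whose counts come to 0.682% of those of Igf2.

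Per kilobase of annotated exon, H19 stood above Igf2 at every stage but d2. The ratio of their RPKM (exon length 2.372 kb for H19 and 5.493 kb for Igf2) was 5.20 and 5.03 in K36M d0 and 2.86 and 2.72 in WT d0. At d2 it was 0.802 and 0.652 in K36M and 0.881 and 0.914 in WT. At d4 it was 17.9 and 19.1 in K36M and 18 and 18.4 in WT, so the K36M libraries enclose the WT libraries. From d6 the ratio was higher in K36M again, with 17.6 and 18 in K36M against 11.3 and 12.7 in WT at d6, and 12.6 and 12.8 in K36M against 9.46 and 9.37 in WT at d8. The WT d8 libraries, which are far apart in both genes, gave nearly the same ratio. In iPSCs it was 4.23 and 4.01 in K36M and 3.74 and 3.93 in WT, and in noOKSM MEFs 4.68 and 4.93 in K36M and 1.39 and 1.27 in WT. The ratio is given as a description, with no test.

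**Figure D3:**
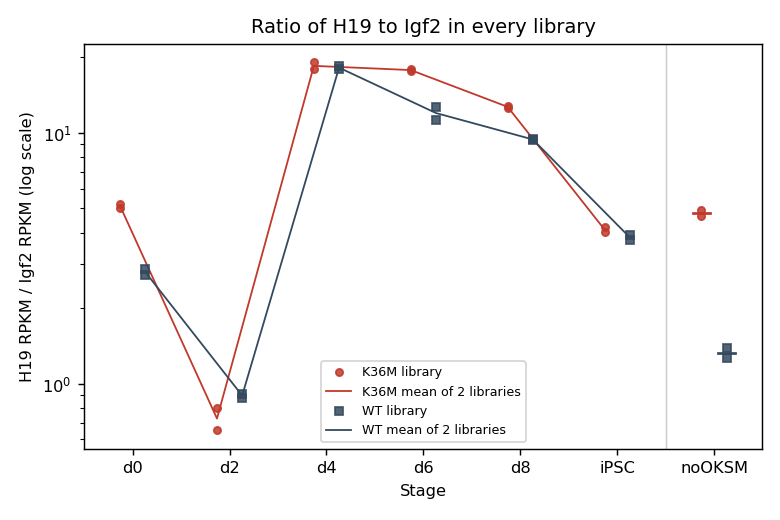
Ratio of H19 to Igf2 in RPKM (log axis) in every library, K36M as red circles and WT as dark squares, with lines through the means of 2 libraries from d0 to iPSC and the noOKSM MEFs at the right. The ratio lies between 0.652 and 0.914 at d2 and between 17.9 and 19.1 at d4 over both genotypes, and is farthest apart in noOKSM MEFs.

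Across all 28 libraries, the log2 CPM of H19 was most like that of Apbb1 (Pearson r = 0.86), Tle6 (0.845), Ralgds (0.843), Fam76a (0.834) and Itpkc (0.83) among 10217 ranked genes. The ranked genes have a mean of at least 5 CPM, and predicted, clone, Rik, pseudogene and mitochondrial gene names were left out. Apbb1 codes for an adaptor of the amyloid precursor protein, and it averaged 4.57 CPM in K36M d2 and 5.5 CPM in WT d2, against 19.4 CPM in K36M d0 and 19.1 CPM in WT d0. Igf2 was most like Dennd2a (0.885), Ephb3 (0.88), Nicn1 (0.876), Spry1 (0.875) and Ndrg1 (0.861). Between the imprinted genes, Cdkn1c ranked 21 for H19 (0.793) and 17 for Igf2 (0.836), while H19 and Igf2 had r = 0.733 with each other (rank 64 and rank 190). Plagl1 had r = -0.391 with H19 and -0.702 with Igf2. These correlations are descriptions over 28 libraries that come in pairs of 1 group.

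Igf2r codes for the mannose 6-phosphate receptor, which takes up IGF2 for breakdown. Its level stayed within a few fold in all groups. At d0 it had 674 and 694 CPM in K36M and 426 and 567 CPM in WT (0.46 ± 0.147, adjusted p = 0.034 in edgeR), a call lost without WT d0 replicate 1 (0.27, adjusted p = 0.467), K36M d0 replicate 1 (0.48, adjusted p = 0.123) or K36M d0 replicate 2 (0.44, adjusted p = 0.151). At d6 Igf2r was lower in K36M, with 196 and 235 CPM against 400 and 369 CPM in WT (-0.84 ± 0.148, adjusted p = 2.92e-05 in edgeR), and this held without any 1 library. At d8 it was higher, with 429 and 423 CPM in K36M and 290 and 329 CPM in WT (0.46 ± 0.147, adjusted p = 0.00936 in edgeR; 0.37 and adjusted p = 0.0983 without WT d8 replicate 1). In noOKSM MEFs it had 736 and 523 CPM in K36M and 488 and 429 CPM in WT (0.46 ± 0.147, adjusted p = 0.0181 in edgeR). That call was lost without K36M noOKSM replicate 1 (0.19, adjusted p = 0.387) or WT noOKSM replicate 2 (0.36, adjusted p = 0.16), and in a fit of these 4 libraries alone (0.47, adjusted p = 0.0658). At d2, d4 and in iPSCs the log2 values were 0.15, -0.18 and -0.18, with edgeR adjusted p of 0.554, 0.306 and 0.733. The antisense RNA Airn overlaps Igf2r on the other strand without shared exon bases, and its counts come to 0.743% of those of Igf2r.

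Grb10 codes for an adaptor that binds the insulin and IGF1 receptors and restrains their signal. Per length it was one of the most abundant of the 10, at 108 RPKM in K36M d0 and 107 RPKM in WT d0. At d0 it had 1010 and 976 CPM in K36M and 924 and 1040 CPM in WT, which overlap (0.02 ± 0.135, adjusted p = 0.985 in edgeR). From d4 to d8 it was lower in K36M. At d4 it had 955 and 937 CPM in K36M and 1340 and 1460 CPM in WT (-0.56 ± 0.135, adjusted p = 0.00124 in edgeR), and at d8 605 and 636 CPM in K36M and 1070 and 1090 CPM in WT (-0.80 ± 0.136, adjusted p = 2.45e-05). At d6 it had 470 and 762 CPM in K36M and 1260 and 1280 CPM in WT (-1.04 ± 0.136, adjusted p = 5.14e-07), with -0.73 without K36M d6 replicate 1 and -1.44 without K36M d6 replicate 2. In iPSCs it had 170 and 190 CPM in K36M and 180 and 190 CPM in WT, its lowest level in both genotypes, 5.53-fold below d0 in K36M and 5.32-fold below d0 in WT (edgeR adjusted p = 2.51e-13 and 3.35e-13).

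Of 21 other genes of the insulin-like growth factor system, all tested, 6 were higher and 2 lower in K36M at d0 (15.9% of all genes called), 4 were higher and 4 lower at d2 (20.1%), 4 were higher and 11 lower at d4 (52.9%), and 8 were higher and 10 lower at d6 (70.9%). At d8, 9 were higher and 8 lower (60.6%), in iPSCs 2 were called, both higher (1.25%), and in noOKSM MEFs 6 were higher and 6 lower (35%). The list's median log2 fold change was 0.24 at d0, -0.69 at d4, -0.90 at d6 and -0.06 at d8, against 0 to 0.08 for all genes. Igfbp3, the main carrier protein of circulating IGFs, had 13.8 and 14 CPM in K36M d8 and 401 and 390 CPM in WT d8 (-4.83, adjusted p = 1.54e-18 in edgeR). Igfbp5, a binding protein of the extracellular matrix, had opposite differences in the MEF groups: 2640 and 2630 CPM in K36M d0 against 359 and 445 CPM in WT d0 (2.71, adjusted p = 3.95e-10), and 93.9 and 63.7 CPM in K36M noOKSM against 385 and 327 CPM in WT noOKSM (-2.18, adjusted p = 1.79e-09). Pappa, a protease that cuts IGF binding proteins, had 0.0889 and 0.0803 CPM in K36M d6 and 22.8 and 23.7 CPM in WT d6 (-8.02, adjusted p = 1.88e-12 in edgeR). Igfals, the acid-labile subunit that binds IGF complexes in blood, had 7.29 and 4.38 CPM in K36M d6 and 0.138 and 0.144 CPM in WT d6 (5.31, adjusted p = 1.23e-10). Igfbp7 had 6.81 and 8.42 CPM in K36M d8 and 177 and 158 CPM in WT d8 (-4.46, adjusted p = 4.42e-16), and Igf1, the second IGF ligand, 13.8 and 12.2 CPM in K36M noOKSM and 3.28 and 3.07 CPM in WT noOKSM (2.03, adjusted p = 2.7e-08).

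Cdkn1c codes for p57Kip2, an inhibitor of cyclin-dependent kinases that holds cells out of division. It was low in both genotypes at d2 and higher in K36M than in WT at d6 and d8. At d0 it had 17 and 17.8 CPM in K36M and 28.1 and 28.2 CPM in WT, which do not overlap (-0.69 ± 0.253, adjusted p = 0.0686 in edgeR; a fit of these 4 libraries alone gave 0.00275 and a fit without the filter on low counts 7.05e-05). In noOKSM MEFs it had 12.7 and 12.4 CPM in K36M and 20.2 and 20.2 CPM in WT (-0.68 ± 0.256, adjusted p = 0.0437 in edgeR). That call was lost without any 1 of the 4 libraries (adjusted p from 0.121 to 0.178) and in DESeq2 (adjusted p = 0.0525).

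At d2 Cdkn1c had 0.966 and 1.08 CPM in K36M and 0.531 and 1.16 CPM in WT, which overlap, and was 17-fold below d0 in K36M and 32.8-fold below d0 in WT (edgeR adjusted p = 4.61e-09 and 1.13e-10). At d4 it had 2.85 and 2.11 CPM in K36M and 1.64 and 1.17 CPM in WT (0.86 ± 0.433, adjusted p = 0.102 in edgeR, 0.00308 in edgeR without the filter, 0.0174 in a fit of these 4 libraries alone and 0.0329 in DESeq2). At d6 it had 18.9 and 8.35 CPM in K36M and 2.57 and 3.56 CPM in WT (2.15 ± 0.313, 4.43-fold, adjusted p = 3.57e-06 in edgeR). The K36M d6 libraries are apart here as for H19, and the value was 1.45 without K36M d6 replicate 1 and 2.62 without K36M d6 replicate 2. At d8 Cdkn1c had 29 and 24.8 CPM in K36M and 3.9 and 7.25 CPM in WT (2.23 ± 0.271, 4.69-fold, adjusted p = 4.14e-07 in edgeR). WT d8 replicate 1, low in H19 and Igf2, was low here too, and without WT d8 replicate 2 the value was 2.78. In iPSCs it had 11.6 and 11.4 CPM in K36M and 11.2 and 12 CPM in WT (-0.02 ± 0.273, adjusted p = 1 in edgeR).

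Of 6 other cyclin-dependent kinase inhibitors, 2 were called at d0 (15.9% of all genes), 4 at d2 (20.1%), 6 at d4 (52.9%) and 4 at d6 (70.9%), all of them lower in K36M, and at d8 1 was higher and 4 were lower (60.6%). At d6 the share of the 6 called is below that of all genes. Their median log2 fold change was -1.14 at d4 and -1.11 at d8. Cdkn1a (p21) had 221 and 215 CPM in K36M d8 and 872 and 857 CPM in WT d8 (-1.99, adjusted p = 1.79e-13). Cdkn2a, which codes for p16Ink4a and p19Arf, had 78.6 and 79.2 CPM in K36M d8 and 275 and 225 CPM in WT d8 (-1.67, adjusted p = 7.83e-10), and its neighbour Cdkn2b (p15Ink4b) 28 and 26.6 CPM in K36M d8 and 114 and 97 CPM in WT d8 (-1.95, adjusted p = 7.54e-11). The imprinted inhibitor Cdkn1c and these 3 genes thus had opposite signs at d8. Cdkn1b, the 1 of the 6 called higher at d8, had the same sign as Cdkn1c. Its call was lost without K36M d8 replicate 1 (0.31). In noOKSM MEFs 3 of the 6 were called, all higher in K36M (35% of all genes), Cdkn1a among them (0.34, adjusted p = 0.0116 in edgeR), a call lost without any of 3 of its 4 libraries: K36M noOKSM replicate 2, WT noOKSM replicate 1 and WT noOKSM replicate 2 (0.32 to 0.33, adjusted p from 0.0562 to 0.0656).

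Phlda2 codes for a small protein with a PH domain that limits growth of the placenta in mice. It was close to the detection limit in all MEF groups and in WT through d6, and was the member with the largest K36M difference. The 2 libraries together held 8 reads in K36M d0 and 6 in WT d0, a ratio of 1.16 with an exact 95% interval from 0.352 to 4.04 that covers counting error only. At d2 Phlda2 had 0.92 and 0.597 CPM in K36M and 0.327 and 0.154 CPM in WT (1.67 ± 0.57, adjusted p = 0.0404 in edgeR). That call was lost without K36M d2 replicate 1 (1.30, adjusted p = 0.326), WT d2 replicate 1 (2.28, adjusted p = 0.0544) or WT d2 replicate 2 (1.22, adjusted p = 0.283).

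At d4 Phlda2 had 1.97 and 2.68 CPM in K36M and 0 and 0.0317 CPM in WT (edgeR adjusted p = 4.89e-08). These are 97 reads against 1, a ratio of 117 with a 95% counting interval from 20.6 to 4680. With 3 reads over the WT group as the floor, the ratio was 39.1. At d6 it had 23.4 and 12.6 CPM in K36M and 0.138 and 0.0481 CPM in WT, or 840 reads against 4, a ratio of 188 with an interval from 73.3 to 693 (edgeR adjusted p = 2.12e-13). At d8 it had 20.3 and 20.4 CPM in K36M and 0.456 and 0.537 CPM in WT (5.32 ± 0.284, 39.9-fold, adjusted p = 2.52e-13 in edgeR). These groups lie further apart than those of any other member. In iPSCs both genotypes were high, with 39.5 and 38.5 CPM in K36M and 42.1 and 43.9 CPM in WT (-0.14 ± 0.178, adjusted p = 0.859 in edgeR). The iPSC level stood 209-fold above d0 in K36M and 265-fold above d0 in WT (edgeR adjusted p = 1.92e-15 and 1.61e-15). In noOKSM MEFs Phlda2 had 0.0424 and 0.191 CPM in K36M and 0.314 and 0.282 CPM in WT, or 6 and 16 reads (adjusted p = 0.217 in edgeR).

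Phlda2 is known for its expression in trophoblast. The sum of 8 trophoblast markers was 46.8 to 48.8 CPM in K36M d4, with all 8 detected, and 5.65 to 5.94 CPM in WT d4, with Cdx2 and Elf5 at 0. It was 103 to 143 CPM in K36M d6 and 7.22 to 8.22 CPM in WT d6, 136 to 149 CPM in K36M d8 and 12.5 to 13.2 CPM in WT d8, and 35.5 to 40.3 CPM in K36M iPSC and 43.2 to 51.9 CPM in WT iPSC. In noOKSM MEFs the same sum was 132 to 157 CPM in K36M and 11.8 to 11.9 CPM in WT, with Cdx2 and Elf5 at 0 in both, while Phlda2 was near the detection limit in both. The part of these markers in the Phlda2 result was not tested.

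Plagl1 codes for a zinc finger transcription factor that in mice regulates other imprinted growth genes, H19, Igf2 and Cdkn1c among them. Its highest means were at d2 and d4, where those 3 genes were below d0, though WT d6 overlapped WT d2. In iPSCs Plagl1 was below d0 in both genotypes. The part of Plagl1 in the levels of those genes was not tested. At d0 it had 53.5 and 48.5 CPM in K36M and 39 and 37.8 CPM in WT (0.41 ± 0.109, adjusted p = 0.0114 in edgeR), and the call was lost without K36M d0 replicate 1 (0.34, adjusted p = 0.147), WT d0 replicate 1 (0.43, adjusted p = 0.0634) or WT d0 replicate 2 (0.39, adjusted p = 0.0605). In noOKSM MEFs the difference was larger, with 62.9 and 50.5 CPM in K36M and 23 and 23.6 CPM in WT (1.28 ± 0.11, 2.43-fold, adjusted p = 4.53e-09 in edgeR). The test of that change against the d0 difference gave 0.87 (adjusted p = 0.000287 in edgeR).

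At d2 Plagl1 had 159 and 166 CPM in K36M and 143 and 149 CPM in WT (0.16 ± 0.103, adjusted p = 0.343 in edgeR), 3.19-fold above d0 in K36M and 3.81-fold above d0 in WT (adjusted p = 3.87e-12 and 5.6e-13). At d4 it had 164 and 173 CPM in K36M and 159 and 180 CPM in WT, which overlap (-0.01 ± 0.103, adjusted p = 0.956). At d6 Plagl1 had 82.1 and 102 CPM in K36M and 143 and 146 CPM in WT (-0.64 ± 0.104, adjusted p = 9.82e-06 in edgeR). At this stage H19 and Cdkn1c were higher in K36M and Plagl1 lower, though the H19 call was lost without K36M d6 replicate 1. A link between these genes was not tested. At d8 it had 105 and 111 CPM in K36M and 106 and 101 CPM in WT, which overlap again (0.07 ± 0.104, adjusted p = 0.6). In iPSCs it was at its lowest, with 16.3 and 15.7 CPM in K36M and 14.9 and 16.3 CPM in WT (0.04 ± 0.12, adjusted p = 0.967 in edgeR).

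Peg3 codes for a large zinc finger protein that acts on growth and maternal behaviour in mice. It was higher in K36M at every stage from d0 to d8. At d0 it had 374 and 346 CPM in K36M and 179 and 241 CPM in WT (0.78 ± 0.15, adjusted p = 0.000778 in edgeR). At d2 it had 75.4 and 80.2 CPM in K36M and 36.9 and 34.6 CPM in WT (1.12 ± 0.156, adjusted p = 1.11e-05). The gap was widest at d4, with 170 and 170 CPM in K36M and 33.4 and 42.4 CPM in WT (2.16 ± 0.159, 4.47-fold, adjusted p = 8.6e-11). At d6 Peg3 had 102 and 83.5 CPM in K36M and 61.2 and 53.6 CPM in WT (0.69 ± 0.154, adjusted p = 0.000363), and at d8 241 and 218 CPM in K36M and 101 and 114 CPM in WT (1.09 ± 0.151, adjusted p = 1.53e-06). These 5 calls held without any 1 library. In iPSCs Peg3 had 404 and 417 CPM in K36M and 414 and 432 CPM in WT (-0.04 ± 0.148, adjusted p = 0.97 in edgeR). In noOKSM MEFs it had 253 and 173 CPM in K36M and 202 and 191 CPM in WT, so the K36M libraries enclose the WT libraries (0.12 ± 0.149, adjusted p = 0.586).

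Mest codes for a membrane protein with a hydrolase fold and, in an intron, holds the microRNA gene Mir335. At d0 it had 41.6 and 40.9 CPM in K36M and 12.7 and 17.3 CPM in WT (1.46 ± 0.152, 2.74-fold, adjusted p = 3.82e-07 in edgeR). In noOKSM MEFs it had 23.8 and 16.1 CPM in K36M and 9.43 and 9.84 CPM in WT (1.05 ± 0.156, adjusted p = 1.33e-05). Mest thus differed between K36M and WT in both MEF groups, and both calls held without any 1 library. At d2 it had 27.6 and 25.7 CPM in K36M and 21.1 and 23.2 CPM in WT (0.27 ± 0.148, adjusted p = 0.234). At d4 it had 24.3 and 24 CPM in K36M and 9.92 and 9.2 CPM in WT (1.34 ± 0.158, adjusted p = 1.8e-07), and at d8 25.8 and 28 CPM in K36M and 12.4 and 15.4 CPM in WT (0.94 ± 0.15, adjusted p = 1.02e-05). The d6 libraries were close, with 11.6 and 13.9 CPM in K36M and 10.8 and 9.72 CPM in WT (0.32 ± 0.163, adjusted p = 0.0858 in edgeR; 0.44 and adjusted p = 0.0406 without K36M d6 replicate 1). In iPSCs it had 37 and 35.4 CPM in K36M and 30.1 and 32.4 CPM in WT (0.21 ± 0.145, adjusted p = 0.662). Mest shares 904 exon bases with Copg2 on the other strand, and the counting's strand setting is not given in the sources used here, so the Mest values are uncertain. Copg2 held 324% of the counts of Mest over all libraries.

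Snrpn codes for SmN, a protein of the spliceosome, and lies in the imprinted region tied to Prader-Willi syndrome in humans. It was higher in K36M from d2 to d8. At d0 it was lower in K36M, with 29.9 and 28.9 CPM against 41.5 and 37.5 CPM in WT (-0.43 ± 0.0912, adjusted p = 0.00214 in edgeR; -0.35 and adjusted p = 0.0579 without WT d0 replicate 1). At d2 it had 66.3 and 69.7 CPM in K36M and 33.9 and 33.8 CPM in WT (1.01 ± 0.0894, adjusted p = 1.75e-08), and at d4 154 and 158 CPM in K36M and 44.4 and 45.9 CPM in WT (1.79 ± 0.0891, adjusted p = 1.19e-13). At d6 Snrpn had 210 and 231 CPM in K36M and 47.8 and 45 CPM in WT (2.25 ± 0.0902, 4.75-fold, adjusted p = 1.51e-15), and at d8 133 and 133 CPM in K36M and 63 and 59.3 CPM in WT (1.12 ± 0.0871, adjusted p = 1.67e-10). These 4 calls held without any 1 library.

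The K36M course of Snrpn peaked at d6, 7.49-fold above d0 (adjusted p = 6.15e-18 in edgeR), and the WT course was highest in iPSCs, 2.49-fold above d0 (adjusted p = 4.07e-12). In iPSCs Snrpn had 120 and 118 CPM in K36M and 98.8 and 98.2 CPM in WT, which do not overlap (0.27 ± 0.0862, adjusted p = 0.145 in edgeR, 0.0478 in DESeq2 and 0.00166 in a fit of these 4 libraries alone). In noOKSM MEFs it was higher in K36M, with 48.5 and 58.5 CPM against 39.9 and 41.8 CPM in WT (0.39 ± 0.0882, adjusted p = 0.00135 in edgeR), a call lost without K36M noOKSM replicate 2 (0.25, adjusted p = 0.068).

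**Figure D4:**
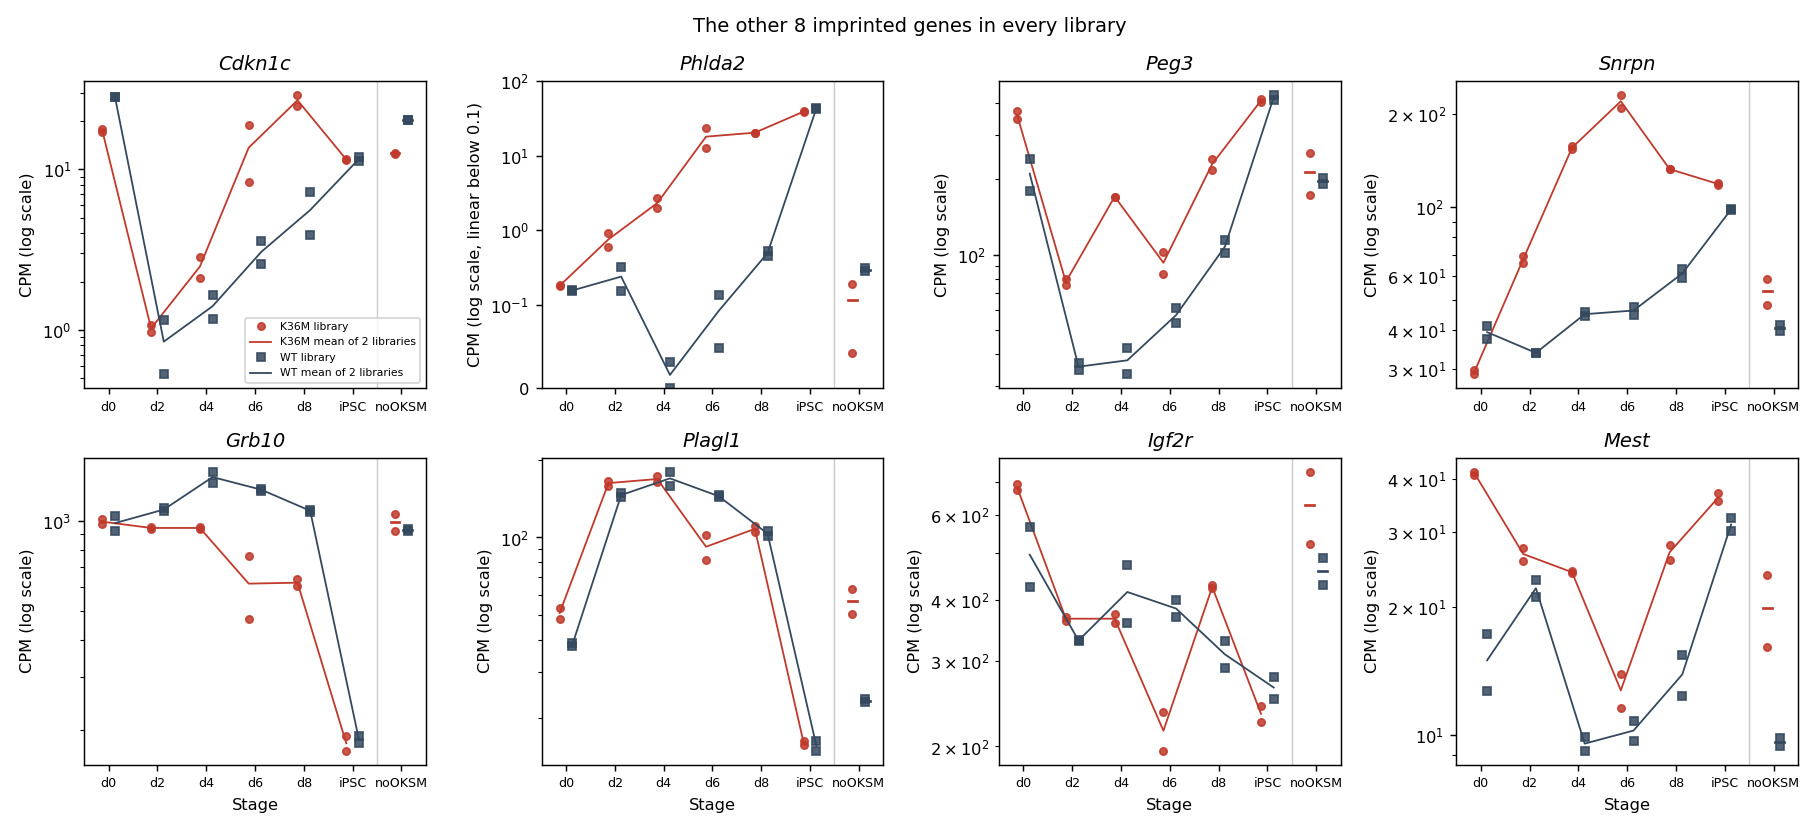
CPM on a log scale (for Phlda2 linear below 0.1 CPM) for the 8 other genes in every library, K36M as red circles and WT as dark squares, with lines through the means of 2 libraries from d0 to iPSC and the noOKSM MEFs at the right. Snrpn separates from d2 to d8 (220 CPM in K36M d6 and 46.4 CPM in WT d6), Phlda2 from d4 to d8 (20.4 CPM in K36M d8 and 0.497 CPM in WT d8), and the iPSC points of both genotypes lie close together.

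Most tested genes were called against d0 from d2 to iPSCs, but not in noOKSM MEFs. The members moved in both directions from d2 to iPSCs and, in K36M, in noOKSM MEFs. In K36M, 3 were higher and 6 lower at d2 (61.1% of all genes called in edgeR), 3 and 6 at d4 (68.9%), 3 and 6 at d6 (77.9%), 4 and 5 at d8 (73.5%), 2 and 6 in iPSCs (75.5%), and 1 and 4 in noOKSM MEFs (34.5%). In WT, 2 were higher and 6 lower at d2 (57.8%), 2 and 5 at d4 (57.4%), 3 and 6 at d6 (59%), 3 and 4 at d8 (64%), 4 and 5 in iPSCs (77.5%), while in noOKSM MEFs 4 were called, all lower (8.2%). The 9 WT calls at d6 were 5 without WT d0 replicate 2 or either WT d6 library. H19, Igf2 and Cdkn1c, the 3 with the deepest low, were called lower at d2 and d4 in both genotypes. Peg3 was 4.62-fold below d0 in K36M d2 and 5.87-fold below d0 in WT d2 (edgeR adjusted p = 2.19e-11 and 3.39e-12), and in iPSCs it stood 2.02-fold above d0 in WT (adjusted p = 2.06e-06) and 1.14-fold above d0 in K36M (adjusted p = 0.252). In noOKSM MEFs, H19 was 3.09-fold below d0 in K36M and 6.49-fold below d0 in WT (edgeR adjusted p = 0.000411 and 1.56e-05), and Igf2 was 2.89-fold below d0 in K36M and 3.11-fold below d0 in WT (adjusted p = 0.00084 and 0.00197). All these comparisons within a genotype share the same 2 d0 libraries. Those of noOKSM MEFs also compare libraries with different name prefixes, which cannot be told apart from the stage.

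The K36M difference itself was tested against that at d0. It was higher for 1 and lower for 3 members at d2 (10.6% of all genes called in edgeR), higher for 4 and lower for 3 at d4 (35%), 3 and 5 at d6 (55.6%), 3 and 1 at d8 (38.2%), 1 and 3 in iPSCs (7.8%), and 2 and 1 in noOKSM MEFs (25.1%). The 7 calls at d4 were 4 without WT d0 replicate 1 or either K36M d4 library and 3 without WT d4 replicate 2. The 4 calls in iPSCs were 2 without K36M d0 replicate 1, WT d0 replicate 1, either K36M iPSC library or WT iPSC replicate 2, and 7 without the filter on low counts. Snrpn was higher in all 6 of these tests, from 0.70 in iPSCs (adjusted p = 0.00102) to 2.67 at d6 (adjusted p = 1.09e-13). For Phlda2 the differences were 6.33, 7.29 and 5.12 at d4, d6 and d8 (adjusted p = 0.00206, 0.000118 and 0.00155), fitted values that rest on few WT reads. For Mest they were -1.19, -1.14 and -1.25 at d2, d6 and in iPSCs (adjusted p = 0.000527, 0.000146 and 0.000505).

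Of 52 further genes listed as imprinted, 44 were tested. Whether each is imprinted in these cells was not measured, as the counts are not split by allele. At d0, 3 were higher and 6 lower in K36M (15.9% of all genes called), and at d2 7 and 8 (20.1%). At d4 16 were higher and 11 lower (52.9%), at d6 18 and 14 (70.9%), and at d8 18 and 13 (60.6%). In iPSCs 1 was higher and 1 lower (1.25%), and in noOKSM MEFs 10 and 9 (35%). The shares called at d0, d4, d6, d8 and in noOKSM MEFs are near or not far above those of all genes. Their median log2 fold change was -0.07 at d0, 0.05 at d4, 0.31 at d6 (0.24 with groups at 0 set to 3 reads) and 0.18 at d8. Sfmbt2, which codes for a polycomb protein of the placenta, had 26.1 and 26.6 CPM in K36M d4 and 1.54 and 2.13 CPM in WT d4 (3.80, adjusted p = 1.35e-12 in edgeR), and in iPSCs its difference was 0.16 (adjusted p = 0.808). Asb4, part of a ubiquitin ligase, had 5.38 and 7.79 CPM in K36M d6 and 0.184 and 0.0963 CPM in WT d6 (adjusted p = 5.57e-11). Cobl, a nucleator of actin filaments that neighbours Grb10, was lower, with 21.1 and 21.9 CPM in K36M d6 and 276 and 262 CPM in WT d6 (-3.65, adjusted p = 3.74e-18). It was also lower in noOKSM MEFs, with 3.13 and 2.71 CPM in K36M and 37.1 and 37.3 CPM in WT (-3.67, adjusted p = 1.99e-16). Slc22a3, an organic cation transporter beside Igf2r, was lower at d6 (-4.61, adjusted p = 3.72e-08), and so was Nap1l5 (-3.41, adjusted p = 1.88e-08). Magel2, in the same imprinted region as Snrpn, had 52 reads in K36M d8 and 0 in WT d8. With 3 reads over the WT group as the floor, the ratio was 25.6. Both Nap1l5 and Magel2 went the other way at d0. Nap1l5 was called higher in K36M d0, a call lost without WT d0 replicate 1 (1.12). Magel2 was called lower in K36M d0, a call lost without K36M d0 replicate 1 (-2.21) or WT d0 replicate 2 (-2.38).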

How the data were processed

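Poly(A) RNA of 28 libraries was sequenced from a directional NEBNext Ultra kit, per the labels' protocols. The authors deposited 1 table of read counts per gene. STAR 2.5.0, HTSeq 0.11.2, edgeR and the mm9 build are named, per the submitters' processing notes, while the annotation and the strand setting of the counting are not given there or in the labels. Of 37620 gene IDs, 37205 are in GENCODE vM1, which gave coordinates and exon lengths. Columns of iPSC and noOKSM libraries carry no stage and were matched by library number, genotype and replicate, and 0 columns were left unused.

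The count model was edgeR 4.0.16 under R 4.3.3. After filterByExpr (minimum count 10, minimum total 15) and TMM scaling, 1 quasi-likelihood fit with a mean for each of 14 groups (14 residual degrees of freedom) was made over 16932 genes. The tests are two-sided, p-values are Benjamini-Hochberg adjusted over all tested genes, and the threshold is 0.05. CPM scale each count to the TMM-adjusted total of its library, and ± is the SE of a log2 fold change, taken as its size over the square root of the quasi-likelihood F. Alternatives were median-of-ratios size factors, no filter, a fit of the compared groups alone, DESeq2 1.42.0, a replicate block and leaving out each library. The scripts were tested on simulated data.

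The 10 members and all gene lists were chosen with earlier results of these data known. Named genes are the members, genes that overlap a member, and up to 6 genes per list. The list genes have the largest mean absolute difference among those called at 3 or more stages. Also named are the 5 genes most correlated with H19 or Igf2 at a mean of at least 5 CPM (log2 CPM with a prior count of 2). Predicted, clone, Rik, pseudogene and mitochondrial gene names were left out of that ranking. Replicates with the same number in K36M and WT had correlated deviations of -0.19 to 0.35 over 7 stages, and no label pairs them. No 2 libraries of a group agreed within sampling noise.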

Additional observations from a re-analysis of the deposited data

Results flagged for a closer look

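Each value here is the K36M-over-WT log2 difference at a stage minus that at d0, with its SE where 1 is given and its adjusted p from edgeR's quasi-likelihood test. All share the 4 d0 libraries, so they are not independent of each other. The values for noOKSM MEFs also compare libraries with different name prefixes. H19 was lower by this measure at d2 (-2.98 ± 0.461, adjusted p = 0.000262), d6 (-1.10 ± 0.418, adjusted p = 0.0321) and in iPSCs (-1.52 ± 0.419, adjusted p = 0.0317). Igf2 was lower at d2 (-1.79 ± 0.439, adjusted p = 0.0117). Igf2r was lower at d4 (-0.65, adjusted p = 0.0181) and d6 (-1.30, adjusted p = 1.45e-05). Grb10 was lower at d4 (-0.58, adjusted p = 0.0214), d6 (-1.06, adjusted p = 6.25e-05) and d8 (-0.81, adjusted p = 0.00156). Cdkn1c was higher at d4 (1.55, adjusted p = 0.0198), d6 (2.84, adjusted p = 4.63e-06) and d8 (2.92, adjusted p = 1.74e-06). Phlda2 was higher at d4 (6.33 ± 1.51, adjusted p = 0.00206), d6 (7.29, adjusted p = 0.000118) and d8 (5.12, adjusted p = 0.00155). Plagl1 was lower at d4 (-0.42, adjusted p = 0.0328) and d6 (-1.06, adjusted p = 3.23e-06) and higher in noOKSM MEFs (0.87, adjusted p = 0.000287). Peg3 was higher at d4 (1.38, adjusted p = 2.11e-05) and lower in iPSCs (-0.82, adjusted p = 0.0168) and noOKSM MEFs (-0.66, adjusted p = 0.0248). Mest was lower at d2 (-1.19, adjusted p = 0.000527), d6 (-1.14, adjusted p = 0.000146) and in iPSCs (-1.25, adjusted p = 0.000505). Snrpn was higher at d2 (1.43, adjusted p = 7.09e-08), d4 (2.21, adjusted p = 7.04e-12), d6 (2.67, adjusted p = 1.09e-13), d8 (1.55, adjusted p = 9.27e-10), in iPSCs (0.70, adjusted p = 0.00102) and in noOKSM MEFs (0.82, adjusted p = 7.55e-05).

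Leaving out 1 library ended some of these calls. The d4 value was lost without any of 4 of the 8 libraries for Igf2r, 2 for Cdkn1c, 5 for Grb10 and 6 for Plagl1 (adjusted p up to 0.149, 0.136, 0.0938 and 0.16). For Igf2r at d4 it was -0.43 without WT d4 replicate 2 and -0.46 without WT d0 replicate 1. H19 at d6 lost its call without any of 7 of the 8 libraries, with -0.72 (adjusted p = 0.18) without K36M d6 replicate 2. H19 in iPSCs lost it without any of 7 of the 8 (adjusted p up to 0.138). Igf2 at d2 lost it without WT d0 replicate 1 (-1.72, adjusted p = 0.0679) or K36M d2 replicate 1 (-1.72, adjusted p = 0.0613). Peg3 in iPSCs lost it without K36M d0 replicate 1, WT d0 replicate 1, either K36M iPSC library or WT iPSC replicate 2 (adjusted p from 0.053 to 0.13). Peg3 in noOKSM MEFs lost it without K36M d0 replicate 1 (-0.60), WT d0 replicate 1 (-0.46), K36M noOKSM replicate 2 (-0.41) or WT noOKSM replicate 1 (-0.62), with adjusted p from 0.0847 to 0.184, and in a fit of the compared groups alone (-0.63, adjusted p = 0.0931).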

How the results depend on the processing

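For the 10 members, 758 of their leave-one-out values kept direction and side of the threshold, 119 lost the call, 2 gained it and 13 changed sign, all 13 uncalled before. In leave-one-out ranges with a sign change, Grb10 ran from -0.07 to 0.1 at d0 (-0.01 without K36M d0 replicate 1), from -0.12 to 0.04 in iPSCs (0 without WT iPSC replicate 2) and from -0.02 to 0.17 in noOKSM MEFs, Cdkn1c from -0.18 to 0.93 at d2 and from -0.07 to 0.04 in iPSCs, Igf2r from -0.41 to 0.03 and Plagl1 from -0.14 to 0.09 at d4 (0.02 without K36M d4 replicate 1), Plagl1 from -0.03 to 0.11 in iPSCs, Igf2 from -0.35 to 0.59 at d6 and Peg3 from -0.19 to 0.36 in noOKSM MEFs. Median-of-ratios size factors and DESeq2 both turned Plagl1 at d4 to 0.01 (-0.01 in the reported fit). Without the filter, iPSCs had 1 called member and 447 called genes, and the difference of the iPSC contrast from that at d0 held 7 members. Fits of the compared groups alone called 9 members and 6818 genes at d2, 7731 genes at d6, 1 member and 1397 genes in iPSCs, and 3382 and 2407 genes for the differences of d2 and iPSCs from d0. DESeq2 called 1 member and 319 genes in iPSCs, against none and 211 in edgeR. With 1 library left out, K36M against WT ran from 1200 to 2754 genes and 3 to 5 members at d0 (2694 and 7 with all), 2097 to 2253 genes and 2 to 3 members at d2 (3405 and 4), 55 to 251 genes in iPSCs (211) and 4 to 5 members in noOKSM MEFs (7). Differences from d0 ran from 1099 to 1925 genes at d2 (1791), 3 to 7 members at d4 (7), 694 to 1579 genes and 2 to 4 members in iPSCs (1321 and 4), and 2301 to 4788 genes in noOKSM MEFs (4246). K36M noOKSM against d0 ran from 3315 to 5589 genes (5834), WT d6 against d0 from 5 to 7 members (9) and WT noOKSM against d0 from 635 to 1379 genes (1389). Leaving out a library leaves 1 in its group, which is then assumed to vary like the other groups. A replicate block moved none of the 50 counts by over 1.5 times and none of the 193 member values across the threshold, and ended 2 list calls, Tet3 at d0 (0.48, adjusted p = 0.0527) and Magel2 at d4 (2.54, adjusted p = 0.0511). Of 960 recomputed values of the list genes, 75 lost their call, 59 of them with 1 library left out. The cause of these changes was not tested. Depth limits Phlda2 in MEFs and in WT to d6, where 16 reads or fewer stand behind a group.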

Other observations

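Of 20 factors that set, keep or remove imprints, 8 were called in K36M against WT at d0 in edgeR, all higher (15.9% of all genes called), 3 were higher and 1 lower at d2 (20.1%), and 10 were higher and 1 lower at d4 (52.9%). At d6, 9 were higher and 6 lower (70.9%), at d8 15 and 2 (60.6%), and in noOKSM MEFs 3 and 2 (35%), while in iPSCs 1 was called, lower (1.25%). The shares called at d2, d4 and d6 are near those of all genes. Their median log2 fold change was 0.37 (d0), 0.13 (d2), 0.43 (d4), 0.20 (d6, or 0.10 with groups at 0 set to 3 reads) and 0.53 (d8), and -0.01 both for iPSCs and for noOKSM MEFs, against 0 to 0.08 for all genes. Dnmt3b, a de novo DNA methyltransferase, had 191 and 188 CPM in K36M d4 and 6.42 and 6.06 CPM in WT d4 (4.93, adjusted p = 1.39e-17). Tet1, which oxidises methylcytosine, had 36.4 and 35 CPM in K36M d4 and 2.02 and 2.47 CPM in WT d4 (3.96, adjusted p = 3.1e-15). Tet3, a related enzyme, went the other way at d6, with 11.6 and 13.8 CPM in K36M and 66.5 and 54.2 CPM in WT (-2.25, adjusted p = 1.69e-10). Dppa3, which guards imprints in the early embryo, had 36.4 and 23.9 CPM in K36M d6 and 0.23 and 0.193 CPM in WT d6 (7.12, adjusted p = 1.84e-12), and no read in either genotype at d0 (no test value is given there). Uhrf1, which brings Dnmt1 to newly copied DNA, had 377 and 358 CPM in K36M d4 and 109 and 120 CPM in WT d4 (1.68, adjusted p = 1.96e-11). Dnmt3b and Dppa3 are also expressed in pluripotent cells, whose marker sum was higher in K36M at d4, d6 and d8. The part of those markers in the values of all these factors, Tet1 included, was not tested.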
